A study of Mus musculus with 12 samples.

Results

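The 10 genes described here serve cholesterol efflux and its control by the liver X receptors: Abca1, Abcg1, Apoe, Nr1h2, Nr1h3, Rxra, Pparg, Lpl, Pltp and Mylip. They were chosen by symbol, with earlier results of these data known, and all 10 were found among the 14460 genes of the table. RNA was sequenced from GFP-positive cells sorted from hearts of mice that carry a GFP gene in 1 allele of Cx3cr1 (strain Cx3cr1GFP/+), aged 2-3 months. Each of 4 groups had 3 libraries: day 0, from uninfarcted mice that had no surgery, and days 3, 7 and 30 after a cryoinjury, in which part of the heart wall is frozen as a model of infarction. Cells of days 0, 7 and 30 came from a Ly6c-low, CX3CR1-high gate and cells of day 3 from a Ly6c-high, CX3CR1-low gate, so at day 3 the time after injury and the gate cannot be told apart. All groups share the knock-in allele, which leaves 1 intact copy of Cx3cr1. The labels describe 3 independent biological replicates and do not say whether hearts were pooled.

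Macrophages that clear dying cells take up more cholesterol than they can break down and must export it. Nr1h3 and Nr1h2 encode the liver X receptors alpha and beta, nuclear receptors that are switched on by oxysterols and bind DNA as a pair with the retinoid X receptor encoded by Rxra. Their well-known targets include the transporters Abca1 and Abcg1, the lipoprotein protein Apoe, the phospholipid transfer protein Pltp, the lipase Lpl and Mylip, a ubiquitin ligase that limits lipoprotein uptake. Pparg encodes another nuclear receptor that pairs with Rxra and is linked to lipid uptake and to the expression of Nr1h3 in macrophages.

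The promoter of Abca1 is shown because it was the only member window with a match to the repeat searched. That repeat is a shortened form of the one that liver X receptors are known for. Windows were the 250 bases before each annotated start in RefSeq (GRCm38.p6), present for 8 of the 10 members (14 windows). No window was present for Abcg1 and Lpl, so these were not searched. The motif searched was a direct repeat of GGTNA with any 5 bases between the copies, on both strands. It was found in 204 of 32851 windows (0.621%). The second motif was the E-box CACGTG, which reads the same on both strands and did not overlap the repeat. It was found in 1978 windows (6.02%), and among the members in Abca1 alone. Srebf1, a liver X receptor target outside the 10 genes, had 3 windows, of which 1 held the repeat. That window, picked for its match, is printed below that of Abca1 for comparison. Both run 5′ to 3′ on the strand of the gene, and capitals mark the matches. The repeat lies 67 to 53 bases before the start of Abca1 (chr4:53159948-53159962) and 182 to 168 bases before the start of Srebf1 (chr11:60210639-60210653), and reads from the opposite strand in both.
Abca1, chr4:53159896-53160145, minus strand: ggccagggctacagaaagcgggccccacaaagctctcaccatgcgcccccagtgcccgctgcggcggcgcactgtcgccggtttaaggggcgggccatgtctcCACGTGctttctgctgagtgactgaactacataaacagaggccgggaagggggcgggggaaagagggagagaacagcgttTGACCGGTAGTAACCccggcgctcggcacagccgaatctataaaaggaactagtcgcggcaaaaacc
Srebf1, chr11:60210472-60210721, minus strand: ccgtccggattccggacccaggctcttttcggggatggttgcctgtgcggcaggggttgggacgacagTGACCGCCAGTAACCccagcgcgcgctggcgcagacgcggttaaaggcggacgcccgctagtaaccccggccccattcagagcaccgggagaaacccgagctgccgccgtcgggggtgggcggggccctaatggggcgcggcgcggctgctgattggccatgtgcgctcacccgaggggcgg

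Abca1 and Abcg1 also share a feature of their 3′ UTRs. The microRNA miR-33, which lies in an intron of Srebf2 and is known to act on both transporters, has a seed whose match is CAATGCA. The match occurred in the 3′ UTRs of 945 of 12418 genes of the table (7.61%), and 0.709% of these genes had 2 or more. Among the 10 members, Abca1 had 3 matches and Abcg1 had 2, and the other 8 had none. MiR-33 was not measured in these data. The mature microRNA is printed from RefSeq with seed bases 2 to 8 in capitals, and the UTR stretches from GRCm38 with the matches in capitals. Both stretches lie in the last exon, exon 50 of 50 in Abca1 (132 to 157 bases after the stop codon) and exon 15 of 15 in Abcg1 (714 to 734 bases after it).
mmu-miR-33-5p: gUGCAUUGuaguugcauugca
Abca1, chr4:53033786-53033811, minus strand: attCAATGCAATGCActtCAATGCAa
Abcg1, chr17:31114999-31115019, plus strand: acgCAATGCAacgCAATGCAg

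Libraries held 5828904 to 13199576 reads assigned to genes. Values below are the deposited linear normalised read counts, named signal in what follows. In the different libraries 3 reads, the limit that no read at all would allow, correspond to between 0.190 and 0.543 (counting error only). Summed over 11 macrophage markers, the signal was 7196 to 7916 at day 0, 4511 to 4720 at day 3, 7829 to 12480 at day 7 and 5714 to 6011 at day 30. Summed over 9 resident cardiac macrophage markers it was 4613 to 5814, 399 to 571, 859 to 1696 and 3618 to 3672 in the same order, and over 9 Ly6C-high monocyte markers 215 to 439, 4008 to 6074, 481 to 905 and 554 to 564. The macrophage markers did not move together. Of the 11, 6 were lower and 3 higher at day 3 than at day 0 by the limma test described below (all genes, 22.1% and 22.1%). Those higher were Cd68, Fcgr1 and Itgam. Markers of other cell types gave signal as well, and which cells it came from was not tested. The sum of 13 cardiomyocyte markers was 89.4 to 415 at day 0, 12.04 to 18.8 at day 3, 88.6 to 220 at day 7 and 26.7 to 27.3 at day 30, and the sum of 14 fibroblast markers was 125 to 354, 1369 to 2137, 1137 to 3668 and 387 to 405. Much of the fibroblast sum was Fn1, which macrophages also express, with 29.4 to 130 at day 0, 988 to 1735 at day 3, 453 to 1213 at day 7 and 149 to 152 at day 30. The sum of 6 neutrophil markers was 53.2 to 102 at day 0, 245 to 309 at day 3, 101.3 to 160.2 at day 7 and 60.9 to 65.0 at day 30. Much of this sum was Csf3r, at 47.8 to 54.7, 149 to 185, 91.4 to 148 and 51.6 to 56.7 in the same order. Of these 6 lists, the neutrophil genes Ly6g, Ngp, Camp and Ltf, the cardiomyocyte gene Ckm and the macrophage symbol Adgre1 were not found. No marker that was found was at 0 in all 12 libraries. The part of these markers in the results was not tested. The day 0 library R1 had the lowest and the day 7 library R2 the highest fibroblast sum of its group. Day 0 R1 was also lower than R2 and R3 in endothelial (46.3 against 183 and 166), T and NK cell (42.0 against 198 and 141) and erythroid markers (15.7 against 122 and 139). The 3 day 30 libraries were closely alike (r of 0.990 to 0.993 between them, against 0.943 to 0.987 within the other groups), so tests that count them as 3 samples may call too many genes. As 1 estimate of spread over all 12 libraries serves every comparison, those without day 30 may be affected too. In such bulk samples, fewer cells of a type and less RNA per cell cannot be told apart.

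The 10 genes split into 2 patterns. At day 3 against day 0, Abcg1, Pparg, Nr1h3 and Nr1h2 rose while Pltp, Apoe, Rxra, Abca1, Lpl and Mylip fell. At day 7 no member lay below day 0 beyond the test: Abcg1, Apoe, Pparg, Nr1h3 and Mylip were higher. By day 30 none of the 10 differed from day 0 by the test, and log2 fold changes ran from -0.50 to 0.42. Tests were limma fits of log2(signal + 1) over the 12879 genes whose signal averaged 1 or more, which all 10 members did, with Benjamini-Hochberg adjustment and a threshold of 0.05.

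**Figure D1:**
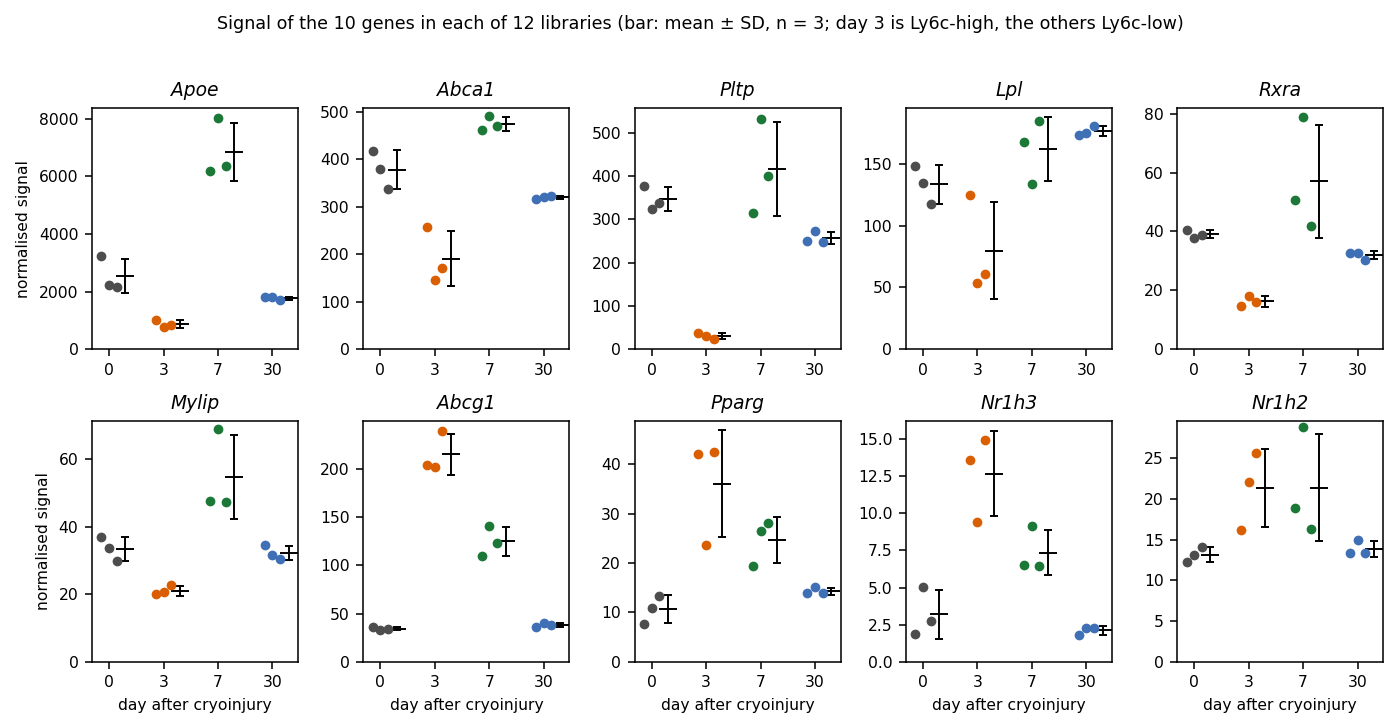
Normalised signal (y axis, linear, from 0, a separate scale for each gene) of the 10 genes against the day after cryoinjury (x axis). Each point is 1 library, and the bar beside the points is the mean ± SD of 3 libraries. Abcg1, Pparg and Nr1h3 have their highest group at day 3, where Pltp, Apoe, Rxra, Abca1, Lpl and Mylip have their lowest.

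Set against the whole table, the day 3 counts were high: 10 of 10 members passed (4 higher, 6 lower), where 44.2% of all genes tested did (22.1% higher and 22.1% lower), and the groups did not overlap for 9 of 10 members against 55.4% of all genes. The median log2 fold change of the members was -0.73 (all genes, -0.02). At day 7 against day 0, 5 of 10 passed, all higher, against 21.6% of all genes (11.4% higher, 10.2% lower), and the median was 0.65 (all genes, -0.02). In a fit of these 2 groups alone, 3 of 10 passed. The groups did not overlap for 8 of 10 members and 32.2% of all genes. At day 30 against day 0, 0 of 10 passed with limma, 2 had an unadjusted p under 0.05, edgeR called 0 and DESeq2 called 1 (Apoe), against 6.18% of all genes called by limma (3.45% higher, 2.73% lower). That share rests on 796 genes, which became 268 without day 0 R2, 402 without day 0 R3, 1990 without day 7 R2, 276, 235 and 272 without day 30 R1, R2 and R3, 14 with the day 30 libraries averaged and 2674 in a fit of these groups alone. The groups did not overlap there for 7 of 10 members and 40.8% of all genes. These 3 comparisons share the day 0 libraries, and the members were chosen with earlier results of these data known.

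At day 7 against day 3, 7 of 10 passed, 6 higher and Abcg1 lower, against 46.8% of all genes (23.3% higher, 23.5% lower), with a median of 1.21 (all genes, 0.04); the groups did not overlap for 8 of 10 members and 50.9% of all genes. At day 30 against day 7, 8 of 10 passed, all lower, against 39.6% (19.7% higher, 19.9% lower), with a median of -0.73 (all genes, 0.01). Groups were apart for 9 of 10 members and 55.3% of all genes. With the day 30 libraries averaged to 1 sample, 2 of 10 members passed, and 815 genes in place of 5103. Without day 30 R1, and likewise without day 30 R3, 5 members passed. At day 30 against day 3, 10 of 10 passed, 6 higher and 4 lower, against 39.4% (19.2% higher, 20.3% lower), and 5 of 10 with the day 30 libraries averaged. Groups were apart for 10 of 10 members and 62.4% of all genes. Over all 4 groups, 10 of 10 members passed the F test, as did 63.9% of all genes. Abcg1 ranked 49th and Pltp 66th of 12879 by its p.

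**Figure D2:**
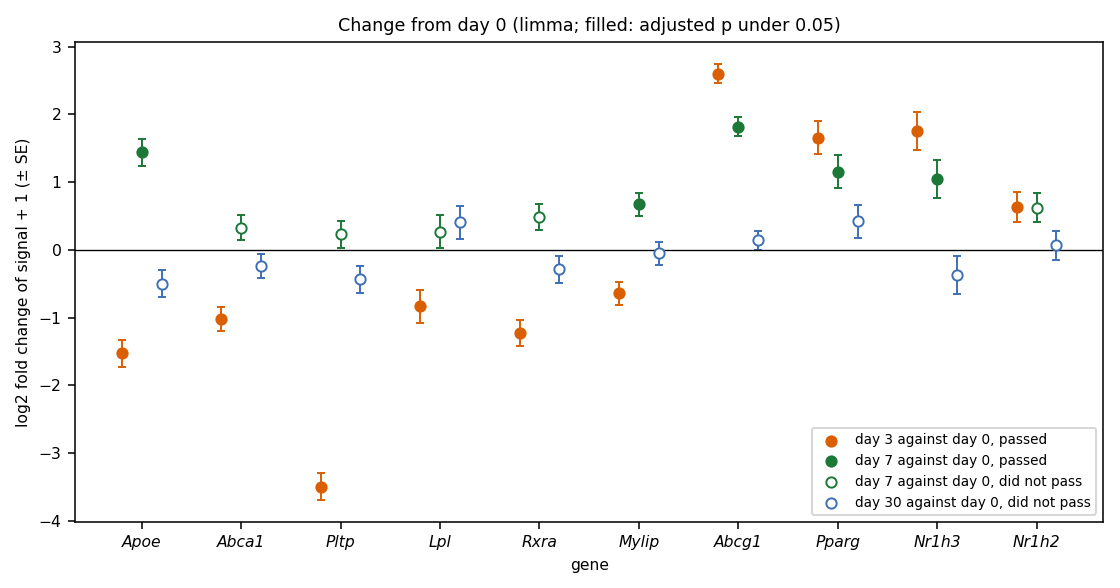
Log2 fold change of signal + 1 against day 0 (y axis, ± SE from limma) for each of the 10 genes (x axis) at days 3, 7 and 30. Filled points passed an adjusted p of 0.05; at day 3 all 10 are filled and range from -3.49 (Pltp) to 2.60 (Abcg1), and at day 30 none is filled.

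Genes were compared per kilobase of annotated exon sequence. This length takes all exons of a gene together and can exceed that of its transcripts, so orders between genes are rough. On this scale Apoe was far above the rest in every group, with a mean of 1188 signal per kb at day 0, 409 at day 3, 3203 at day 7 and 829 at day 30. Pltp was next at days 0, 7 and 30 (135, 162 and 100 per kb) but fell to 11.9 at day 3. Abca1 stood at 36.5, 18.4, 45.8 and 30.9 per kb over the 4 groups. Abcg1 stood at 4.72, 29.5, 17.1 and 5.23, so it was below Abca1 at days 0, 7 and 30 and above it at day 3. Lpl had 7.62 to 16.9 per kb by group and Mylip 6.52 to 16.9. Of the receptors, Rxra had 2.98 to 10.4 per kb by group, Nr1h2 3.93 to 6.37, Pparg 3.61 to 12.2 and Nr1h3 0.84 to 5.04. On this scale receptors were not below all other members in every group. At day 0 Rxra (7.16) was above Abcg1. At day 3 Pparg (12.2 ± 3.66, SD, n = 3) was above Lpl (7.62 ± 3.76) and Mylip (6.52 ± 0.46) and level with Pltp (11.9 ± 3.10).

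Nr1h3, the liver X receptor alpha, lies at chr2:91184061-91202834 on the minus strand. Its signal was 1.85, 5.03 and 2.72 in the day 0 libraries R1, R2 and R3, and 13.6, 9.44 and 14.96 at day 3. It was 6.51, 9.13 and 6.43 at day 7 and 1.79, 2.26 and 2.28 at day 30. Every day 3 and day 7 library lay above every day 0 and day 30 library, although these values rest on only 14 to 142 reads. The gene was 3.37-fold higher at day 3 than at day 0 (log2 fold change 1.75 ± 0.28 SE, limma adjusted p = 0.000121; 1.11 with a pseudocount of 5). At day 7 it was 2.07-fold higher (1.05 ± 0.28, adjusted p = 0.0161), but this did not pass without day 0 R1 (0.80, adjusted p = 0.0643), day 0 R3 (0.0523) or day 7 R2 (0.90, 0.0539), nor in a fit of these groups alone (adjusted p = 0.0837). From day 7 to day 30 it fell by 1.41 (adjusted p = 0.00143; 0.0682 with the day 30 libraries averaged to 1 sample). Day 7 against day 3 did not pass (-0.70, adjusted p = 0.0514) though the groups did not overlap, and passed without day 0 R1 (0.0335), day 0 R2 (0.0291), day 3 R2 (0.0359) or day 7 R2 (0.0324). Nr1h3 shares 34 exonic bases with the transcript Gm13783 on the same strand.

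Nr1h2, the liver X receptor beta (chr7:44549616-44553951, minus strand), varied least of the 10 by its group means, over a range of 0.63 on the log2 scale. Its signal was 12.3, 13.1 and 14.1 at day 0, 16.2, 22.1 and 25.7 at day 3, 18.9, 28.8 and 16.4 at day 7 and 13.3, 14.98 and 13.3 at day 30. Days 3 and 7 lay above day 0 without overlap and covered the same range as each other. The rise at day 3 was 1.55-fold (0.63 ± 0.22 SE, limma adjusted p = 0.0263). It did not pass without day 0 R1 (adjusted p = 0.0663), day 0 R2 (0.0612), day 3 R2 (0.0775) or day 3 R3 (0.122), nor with the day 30 libraries averaged (0.0559). Day 7 gave 0.62 against day 0 with an adjusted p of 0.0515, and 0.39 without day 7 R2, the library with the highest value. It passed with edgeR (adjusted p = 0.0460) and DESeq2 (0.0322), and without day 3 R1 (0.0396) or day 7 R3 (0.0222). The difference between days 7 and 3 was -0.01 (adjusted p = 0.968). The fall from day 3 to day 30 (-0.56, adjusted p = 0.0494) was lost on leaving out any 1 of 9 libraries.

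Rxra, the shared partner of both receptors and of the product of Pparg (chr2:27676440-27762957, plus strand), went against them at day 3. Its signal was 40.7, 37.7 and 38.9 at day 0, 14.6, 18.2 and 16.02 at day 3, 50.6, 78.7 and 41.9 at day 7 and 32.5, 32.8 and 30.4 at day 30. Day 3 was below every other library. The gene was 2.33-fold lower at day 3 than at day 0 (-1.22 ± 0.19 SE, limma adjusted p = 0.000110) and 3.26-fold higher at day 7 than at day 3 (1.71 ± 0.19, adjusted p = 6.41e-06). Day 7 against day 0 gave 0.48 (adjusted p = 0.0861), which rested on day 7 R2: without it the value was 0.23. Without day 7 R3, the lowest library of that group, it was 0.68 and passed (adjusted p = 0.0192). Rxrb, the paralog of Rxra, was at 11.7 ± 0.942 (SD, n = 3) at day 0 and 7.41 ± 1.02 at day 3 (-0.60 ± 0.27 SE, limma adjusted p = 0.0789) and rose from day 3 to day 7 (to 17.7 ± 9.34; 1.05, adjusted p = 0.00467).

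Pparg (chr6:115360951-115490399, plus strand) followed Nr1h3. Its signal was 7.66, 10.9 and 13.4 at day 0, 42.2, 23.6 and 42.5 at day 3, 19.4, 26.5 and 28.2 at day 7 and 13.96, 15.1 and 13.9 at day 30. Both early groups lay above day 0 and day 30, and overlapped each other because day 3 R2 was low. It was 3.15-fold higher at day 3 (1.65 ± 0.24 SE, limma adjusted p = 5.26e-05) and 2.22-fold higher at day 7 (1.15 ± 0.24, adjusted p = 0.00372) than at day 0. Day 7 against day 3 gave -0.50 (adjusted p = 0.104), and -0.77 without day 3 R2 (adjusted p = 0.0177). The fall from day 7 to day 30 (-0.73, adjusted p = 0.0274) did not pass without day 7 R2 (0.0689), day 7 R3 (0.0786) or any 1 day 30 library (0.0579 to 0.0789), nor with these averaged (0.247). Day 30 lay above day 0 in every library, by 0.42 (adjusted p = 0.320), and by 0.23 without day 0 R1.

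The transporters went apart. Abca1 passes cholesterol and phospholipid to lipid-poor apolipoproteins (chr4:53030787-53159895, minus strand). Its signal was 419, 379 and 337 at day 0, 257, 145 and 171 at day 3, 462, 491 and 471 at day 7 and 317, 321 and 323 at day 30. The 4 groups did not overlap at any point, in the order day 3, day 30, day 0, day 7. It was 2.03-fold lower at day 3 than at day 0 (-1.02 ± 0.18 SE, limma adjusted p = 0.000253) and 2.55-fold higher at day 7 than at day 3 (1.35 ± 0.18, adjusted p = 2.48e-05). Neighbours in that order were not all told apart by the test: day 30 and day 0 differed by -0.23 (adjusted p = 0.463) and day 7 and day 0 by 0.33 (adjusted p = 0.193). The fall from day 7 to day 30 (-0.56, adjusted p = 0.0207) did not pass without day 30 R1 (0.0614), R2 (0.0589) or R3 (0.0579), nor with these averaged (0.234).

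Abcg1 passes cholesterol to high density lipoprotein particles (chr17:31057675-31117988, plus strand). Its signal was 36.0, 33.1 and 34.2 at day 0, 204, 202 and 239 at day 3, 110, 140 and 123 at day 7 and 36.2, 40.7 and 37.7 at day 30. Day 3 was highest, day 7 lay between, and the libraries of days 0 and 30 lay together at 33.1 to 40.7. It was 6.08-fold higher at day 3 (2.60 ± 0.14 SE, limma adjusted p = 9.69e-10) and 3.53-fold higher at day 7 (1.82 ± 0.14, adjusted p = 6.19e-07) than at day 0. From day 3 to day 7 it fell by 0.78 (adjusted p = 0.000307), or by 0.41 after quantile normalisation, and from day 7 to day 30 by 1.68 (adjusted p = 4.61e-06). Day 30 differed from day 0 by 0.14 (adjusted p = 0.574).

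Within each library the 2 transporters can be set against each other, a ratio chosen after their values had been seen and given without a test. The signal of Abcg1 over that of Abca1 was 0.0861, 0.0873 and 0.102 at day 0 and 0.794, 1.39 and 1.40 at day 3. It was 0.238, 0.286 and 0.262 at day 7 and 0.114, 0.127 and 0.116 at day 30. On the log2 scale the mean ratio was -3.45 ± 0.13 (SD, n = 3), 0.21 ± 0.47, -1.94 ± 0.13 and -3.07 ± 0.08. Since the genes differ in length, only the change of the ratio between libraries can be read. Day 3 stood apart above the rest, day 7 was between, and all day 30 libraries lay just above all day 0 libraries. The ratio of Nr1h3 to Nr1h2 was also highest at day 3 and next at day 7, with means of -2.16 ± 0.70, -0.75 ± 0.49, -1.51 ± 0.16 and -2.72 ± 0.18, but was lowest at day 30 and not at day 0, with day 0 R2 (-1.38) inside the range of day 7.

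**Figure D3:**
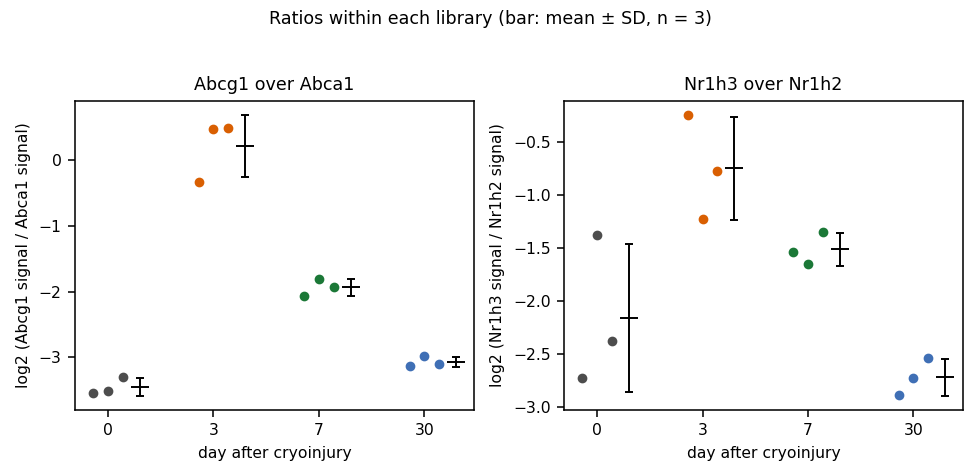
Log2 ratio of the signal of Abcg1 to that of Abca1 (left) and of Nr1h3 to that of Nr1h2 (right) in each library (y axis) against the day after cryoinjury (x axis), with the mean ± SD of 3 libraries beside the points. The ratio of the transporters lies at -3.54 to -3.30 at day 0 and at -0.33 to 0.49 at day 3.

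Apoe, the apolipoprotein that macrophages secrete as an acceptor of cholesterol (chr7:19696109-19699188, minus strand), had the largest swing in absolute signal. Its signal was 3232, 2226 and 2166 at day 0, 1011, 756 and 854 at day 3, 6185, 8009 and 6349 at day 7 and 1795, 1810 and 1710 at day 30. The groups did not overlap, in the order day 3, day 30, day 0, day 7. It was 2.88-fold lower at day 3 (-1.52 ± 0.20 SE, limma adjusted p = 1.72e-05) and 2.72-fold higher at day 7 (1.44 ± 0.20, adjusted p = 0.000143) than at day 0. The rise from day 3 to day 7 was 7.83-fold (2.97 ± 0.20, adjusted p = 3.88e-08), and day 30 was 3.84-fold below day 7 (-1.94, adjusted p = 2.00e-05). The fibroblast marker sum also moved between days 0 and 7, and its part in the rise of Apoe was not tested. Without day 0 R1 and day 7 R2 the rise at day 7 was 1.51 (adjusted p = 1.63e-05), and the fibroblast sums of the libraries left were 324 and 354 at day 0 and 1457 and 1137 at day 7. Day 30 lay below day 0 in every library, by 0.50 (adjusted p = 0.157; DESeq2, 0.0390), by 0.31 without day 0 R1 and by 0.21 after quantile normalisation.

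Pltp moves phospholipids between lipoproteins (chr2:164839518-164857711, minus strand) and fell furthest of the 10. Its signal was 378, 325 and 337 at day 0, 38.5, 30.3 and 22.6 at day 3, 316, 532 and 401 at day 7 and 250, 272 and 247 at day 30. All day 3 libraries were below all others, and days 0 and 7 overlapped. It was 11.3-fold lower at day 3 than at day 0 (-3.49 ± 0.20 SE, limma adjusted p = 2.25e-09) and 13.2-fold higher at day 7 than at day 3 (3.73 ± 0.20, adjusted p = 3.97e-09). Day 7 against day 0 gave 0.23 (adjusted p = 0.422; 0.04 without day 7 R2) and day 30 against day 0 gave -0.43 (adjusted p = 0.211), the latter without overlap. The fall from day 7 to day 30 (-0.67, adjusted p = 0.0156) did not pass without day 7 R2 (-0.47, 0.0587), day 30 R1 (0.0509) or day 30 R3 (0.0545), nor with the day 30 libraries averaged (0.199). Pltp shares 495 exonic bases with the lysosomal gene Ctsa on the opposite strand, and whether the authors' counting used strand is not given in the sources used here. Ctsa was at 427 ± 28.9 (SD, n = 3) at day 0 and 442 ± 42.2 at day 3 (0.04, adjusted p = 0.839), unlike Pltp, and at 823 ± 168 at day 7 (0.93, adjusted p = 0.000755).

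Relative to Apoe, Pltp was lower at days 3 and 7: the log2 ratio of their signals was -2.85 ± 0.22 (SD, n = 3) at day 0, -4.86 ± 0.33 at day 3, -4.06 ± 0.20 at day 7 and -2.79 ± 0.06 at day 30. Apoe relative to Abca1 was highest at day 7, with 2.73 ± 0.20, 2.23 ± 0.22, 3.84 ± 0.16 and 2.47 ± 0.05 in the same order. Both ratios were chosen after the values had been seen and carry no test.

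Lpl, the lipase that releases fatty acids from triglyceride-rich lipoproteins (chr8:68880491-68907448, plus strand), had its highest group mean at day 30. Its signal was 148, 135 and 118 at day 0, 125, 53.6 and 60.9 at day 3, 168, 134 and 185 at day 7 and 174, 176 and 181 at day 30. Day 3 R1 fell inside the day 0 range, and the other day 3 libraries were below all others. The fall at day 3 was 1.78-fold (-0.83 ± 0.24 SE, limma adjusted p = 0.0107), and did not pass without day 3 R2 (-0.60, 0.0684) or day 3 R3 (-0.69, 0.0589). Day 7 was 2.15-fold above day 3 (1.10 ± 0.24, adjusted p = 0.00167) and did not differ from day 0 by the test (0.27, adjusted p = 0.442). Day 30 against day 7 gave 0.14 and did not pass either (adjusted p = 0.673). Day 30 lay above day 0 in every library by 0.41 (adjusted p = 0.334; 0.0173 in a fit of these groups alone). Cardiomyocytes and adipocytes also make this lipase. The cardiomyocyte sums are given above, none of 8 adipocyte markers was found by symbol, and the part of these cells in the values of Lpl was not tested. Gpihbp1, the protein that holds the lipase on capillary endothelium, was at a signal of 0.396 to 5.61 at day 0 and 0.265 to 0.826 at day 3 (-1.30 ± 0.52 SE, limma adjusted p = 0.0532).

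Mylip (chr13:45389742-45412022, plus strand) kept close to the pattern of Apoe at a lower amplitude. Its signal was 36.8, 33.5 and 29.9 at day 0, 19.9, 20.54 and 22.8 at day 3, 47.7, 68.9 and 47.2 at day 7 and 34.6, 31.5 and 30.4 at day 30. Day 3 was below and day 7 above all other libraries, while days 0 and 30 overlapped. It was 1.56-fold lower at day 3 (-0.64 ± 0.17 SE, limma adjusted p = 0.00608) and 1.60-fold higher at day 7 (0.67 ± 0.17, adjusted p = 0.0109) than at day 0, the latter not passing in a fit of these groups alone (adjusted p = 0.0733).

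Across the 12 libraries, Pearson correlations of log2(signal + 1) were taken within and between the 2 sets of members. The 2 sets were named from these same libraries, so the correlations add no separate support for them. These correlations are descriptions over 12 libraries that share 4 group means. Within Abca1, Apoe, Rxra, Lpl, Pltp and Mylip they were 0.58 to 0.96, and within Abcg1, Nr1h2, Nr1h3 and Pparg 0.72 to 0.93. Between the sets they were -0.67 to 0.14. The closest pairs were Apoe with Mylip (0.96), Rxra with Mylip (0.95) and Abcg1 with Nr1h3 (0.93).

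The genes most like each member were sought among tested genes whose signal averaged 10 or more. For Pltp the closest was Cx3cr1 (r = 0.998 over 12 libraries), the gene whose locus drives the GFP used in the sort, followed by Sorbs3 (0.996). Cx3cr1 had a signal of 156, 157 and 145 at day 0, 44.0, 39.1 and 33.8 at day 3, 142, 204 and 176 at day 7 and 132, 126 and 134 at day 30. All day 3 libraries, from the CX3CR1-low gate, were below all others for both genes. For Abcg1 the closest were Csf3r (0.988), Tnc (0.987), Gla (0.984), Ifi30 (0.984) and Lgals3bp (0.983), and for Pparg they were Spp1 (0.966) and Fabp5 (0.953). For Abca1 they were Ntpcr (0.976) and Adi1 (0.974), with the complement gene C1qc at 0.968. For Apoe the closest was Ppfia4 (0.981), for Rxra Espl1 (0.988), for Mylip Mvb12b (0.970), for Nr1h3 Cers2 (0.970), for Lpl Lcp1 (0.968) and for Nr1h2 Cic (0.964).

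**Figure D4:**
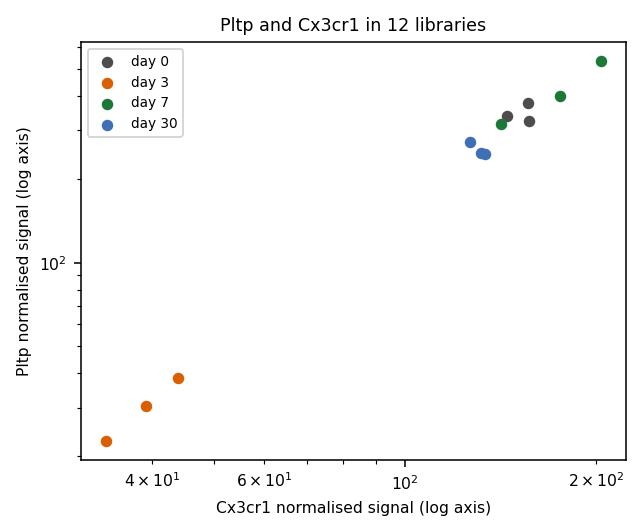
Normalised signal of Pltp (y axis, log scale) against that of Cx3cr1 (x axis, log scale) in the 12 libraries, coloured by day. The 3 day 3 libraries lie apart at a Pltp signal of 22.6 to 38.5 and a Cx3cr1 signal of 33.8 to 44.0.

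Other genes of the pathway were counted from fixed lists, which were chosen with earlier results of these data known. Some genes, Apoc2, Cd36 and Plin2 among them, stand in several lists, so the counts of the lists are not independent. The medians stand beside the median log2 fold change of all genes, -0.02 at day 3 and -0.02 at day 7 against day 0. Of 10 tested partner receptors and coregulators, 7 rose and 1 fell at day 3 (80.0% called, all genes 44.2%), with a median of 0.65. The coactivators Ncoa1 (0.99, limma adjusted p = 0.000165) and Med1 (0.91, 0.000112) were among those that rose. The count of 8 was 4 after quantile normalisation, 5 without day 0 R2 and 5 without day 3 R3. At day 7, 2 of 10 rose, Ppard among them, and none fell, a share of 20% near the 21.6% of all genes, and 0 passed without day 0 R2 or without day 7 R2.

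Among 12 other transporters and apolipoproteins, 5 rose and 5 fell at day 3 (83.3% called, all genes 44.2%; median -0.68). At day 7, 2 rose and 2 fell (33.3%, all genes 21.6%; median 0.36). Apoc2, the activator of lipoprotein lipase, stood at 2.11 to 5.56 at day 0, 49.4 to 66.6 at day 3, 22.5 to 45.7 at day 7 and 2.96 to 3.67 at day 30, so that, like Abcg1 and unlike its neighbour Apoe, it was highest at day 3. It was 3.60 ± 0.29 (SE) higher at day 3 on the log2 scale (limma adjusted p = 9.50e-08). Abca9, a transporter of the same subfamily as Abca1, went from 737 to 755 at day 0 to 35.7 to 48.4 at day 3 and 178 to 342 at day 7 (-4.07 at day 3, adjusted p = 4.17e-10). Scarb1, a receptor for high density lipoprotein, rose by 1.02 at day 3 (adjusted p = 0.00275) and 1.43 at day 7 (adjusted p = 0.000643).

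Of 16 other liver X receptor targets, 7 rose and 3 fell at day 3 (62.5% called, all genes 44.2%; median 0.30). At day 7, 8 rose and none fell (50.0%, all genes 21.6%; median 0.56; 5 passed without day 0 R3). Smpdl3a, a phosphodiesterase gene, stood at 42.9 to 77.7 at day 0, 152 to 179 at day 3, 135 to 204 at day 7 and 57.2 to 64.7 at day 30. Cd5l, a protein secreted by macrophages, was at 0 to 0.543 at day 0 and 1.65 to 19.9 at day 3. It reached 43.8, 59.9 and 81.5 at day 7 and was at 1.13 to 1.46 at day 30. Fads1, a fatty acid desaturase, fell at day 3 (-2.44, limma adjusted p = 5.70e-07) as Abca1 did. At day 30 against day 0, no gene of this list passed with limma or edgeR, where limma called only 6.18% of all genes. Of the list, 2 had an unadjusted p under 0.05 and DESeq2 called 2.

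Uptake receptors were divided. Of 13 tested, 8 rose and 5 fell at day 3 (all called, against 44.2% of all genes; median 0.93). At day 7, 4 rose and 3 fell (53.8%, all genes 21.6%; median 0.50). Olr1, a receptor for oxidised lipoprotein, had a mean of 2.58 at day 0 and 36.2 at day 3 (3.43 ± 0.38 SE, limma adjusted p = 2.97e-06). The scavenger receptors Stab1, Colec12 and Cd36 fell by 2.51, 2.68 and 2.01 at day 3 (adjusted p = 4.05e-07, 6.85e-08 and 9.41e-05). Cd36, which the liver X receptors and Pparg are both known to induce, was at 326 to 492 at day 0, 55.8 to 189 at day 3, 121 to 196 at day 7 and 283 to 304 at day 30, and did not follow Pparg.

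Of 19 tested genes of lysosomal and intracellular cholesterol transport, 6 rose and 4 fell at day 3 (median 0.15), a share of 52.6% near the 44.2% of all genes. At day 7, 6 rose and 1 fell (36.8%, all genes 21.6%; median 0.07). Lipa, the lysosomal acid lipase, was at 248, 250 and 240 at day 0, 289, 177 and 243 at day 3, 578, 662 and 735 at day 7 and 257, 267 and 264 at day 30. Only its day 7 group lay apart (1.41 ± 0.17 SE against day 0, limma adjusted p = 3.17e-05). Npc1, which carries cholesterol out of the lysosome, was higher at day 7 by 1.33 (adjusted p = 2.31e-05).

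Of 12 tested genes of cholesteryl ester storage and lipid droplets, 7 rose and none fell at day 3 (58.3% called, all genes 44.2%; median 0.93). At day 7, 5 rose and none fell (41.7% called, all genes 21.6%; median 0.36; 3 passed without day 0 R3). The lipid droplet coat gene Plin2 was at 94.9 to 111 at day 0, 634 to 717 at day 3, 226 to 259 at day 7 and 118 to 129 at day 30. Nceh1, which hydrolyses cholesteryl ester, was at 34.2 to 35.5, 145 to 199, 129 to 161 and 59.8 to 65.5 in the same order. It was the only gene of that list to pass at day 30 against day 0 (0.83 ± 0.15 SE, limma adjusted p = 0.00413). That is 8.33% of the list, near the 6.18% of all genes. Soat1, which esterifies cholesterol, was 1.36 and 1.43 above day 0 at days 3 and 7 (adjusted p = 2.33e-06 and 9.53e-06).

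Of the 4 tested oxysterol enzymes, 1 passed at day 3, a share of 25% below the 44.2% of all genes. It was Cyp27a1, which makes a ligand of the liver X receptors and fell by 1.47 (limma adjusted p = 2.13e-06). At day 7, 2 passed (50%, all genes 21.6%). Cyp27a1 was lower by 0.63 (limma adjusted p = 0.0111). Ch25h, which makes another such ligand, was higher by 0.81 (limma adjusted p = 0.0184). Without day 0 R2 only 1 of these calls was made. Of 12 partners and regulators of the lipase, 6 rose and 1 fell at day 3 (58.3% called, all genes 44.2%; median 0.82). At day 7, 5 rose and none fell (41.7%, all genes 21.6%; median 0.80; 8 passed without day 7 R3). Lipg, a lipase of the same family as Lpl, had a signal of 0.105 to 0.181 at day 0, under the level that 3 reads give. It was at 49.0 to 68.4 at day 3 and 0 to 0.584 at day 7, against the direction of Lpl in the same libraries.

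Of 8 tested targets of the receptor encoded by Pparg, 3 rose and 1 fell at day 3 (median 0.24), a share of 50.0% near the 44.2% of all genes. At day 7, 4 rose and 1 fell (62.5%, all genes 21.6%; median 0.37). The fatty acid binding protein gene Fabp5 was at 5.28, 15.9 and 17.2 at day 0, 299, 191 and 272 at day 3, 121, 132 and 142 at day 7 and 19.03, 19.6 and 15.8 at day 30. Its order of groups was that of Pparg. Of 23 tested sterol synthesis genes, 3 rose and 4 fell at day 3 (30.4% called, all genes 44.2%; median -0.18; 4 passed without day 0 R3, day 3 R2 or day 3 R3). At day 7, 3 rose and 2 fell (21.7%, all genes 21.6%; median 0.32; 3 passed without day 0 R1 and 2 without day 0 R2 or day 7 R2). Srebf2, the host gene of miR-33 and named for that, did not pass against day 0 at day 3 (-0.33 ± 0.22 SE, limma adjusted p = 0.238) or day 7 (0.36, adjusted p = 0.264).

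**Figure D5:**
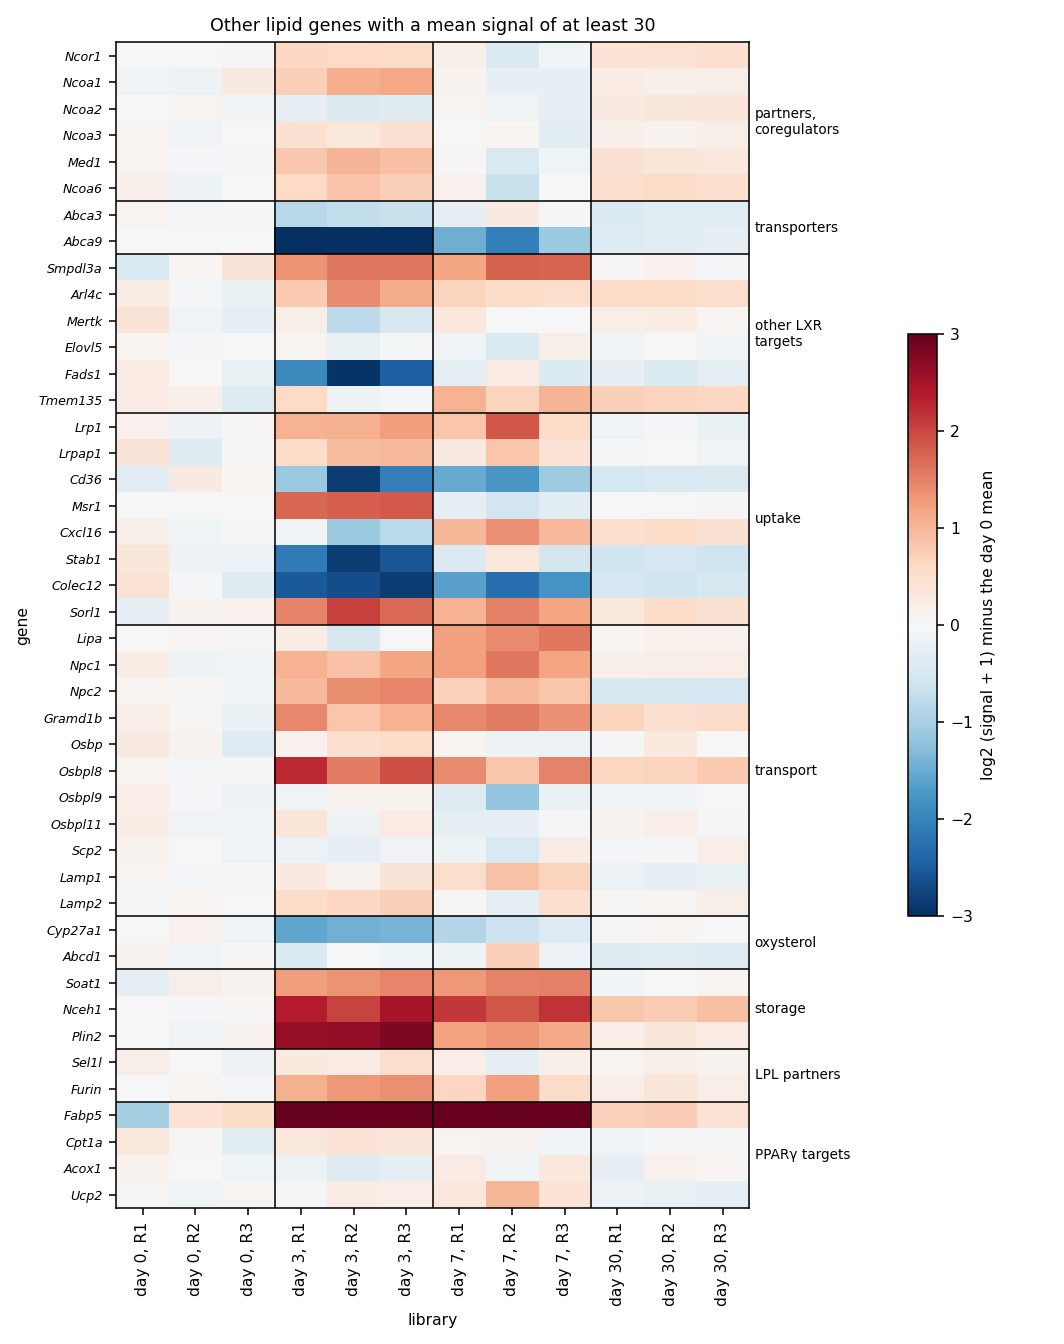
Log2(signal + 1) minus the day 0 mean (colour, ends at -3 and 3) of 44 genes of these lists with a mean signal of at least 30 (rows, grouped by list) in the 12 libraries (columns). Plin2, Nceh1 and Fabp5 are above day 0 in all day 3 and day 7 libraries, and Abca9 and Colec12 are below it in all of them.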

How the data were processed

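The authors deposited 1 table of 14460 genes with a linear normalised signal and a log2 value for each of 12 libraries. Per the submitters' processing notes, cutadapt 1.3, RSEM 1.2.20, edgeR 3.14.0 and GRCm38 were used; their roles are not given in the sources used here. In all 173520 cells the deposited log2 value was the log2 of the signal (within 1e-06), with signals below 1 set to 0. Judged by its steps, the deposited signal holds whole reads in 100% of values (tolerance 0.02 reads), 5828904 to 13199576 per library. On 4 rows rich in ribosomal RNA fell 30.4%, 43.0% and 49.3% of reads at day 0 (R1 to R3), 25.5% to 32.4% at day 3, 35.4% to 47.7% at day 7 and 25.5% to 25.9% at day 30; the part of this share in the results was not tested.

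Log2(signal + 1) of the 12879 genes whose signal averaged 1 or more was fitted with limma 3.58.1 (R 4.3.3; 4 group means, 12 libraries, 8 residual degrees of freedom, variance trend). Tests were two-sided and adjusted by Benjamini and Hochberg over all genes; the pseudocount understates changes of low genes. edgeR 4.0.16 and DESeq2 1.42.0 on the recovered reads were among 25 alternatives; edgeR called 5610, 2595 and 755 genes at days 3, 7 and 30 against day 0. The script was tested on simulated data. Replicate numbers were not used to pair the libraries in the main fit.

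The members and lists were chosen with earlier results of these data known. From each list, up to 4 genes a comparison that passed were eligible to be named, by size of change, at a mean signal of at least 10, besides genes that answer directly to a member and 5 likeness genes each. Gene positions and exon lengths come from GENCODE M21 (GRCm38), promoters and miR-33 from RefSeq (GRCm38.p6). Ctsa, Srebf2 and the ratios were added after the values were seen. Some list genes are counted but not reported here by name.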

Additional observations from a re-analysis of the deposited data

How the results depend on the processing

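Of 1500 values (60 combinations of a member and a comparison under 25 alternatives), 1417 kept their direction and their side of the threshold, 50 no longer passed, 25 newly passed and 8 changed sign. Sign changes were confined to differences near 0. For Nr1h2 between days 7 and 3 (-0.013 as reported) the value was 0.035 after quantile normalisation, 0.0058 with DESeq2, 0.023 without day 3 R2, 0.13 without day 3 R3, 0.051 without day 7 R1 and 0.15 without day 7 R3; leaving out 1 library gave -0.24 to 0.15. For Mylip between days 30 and 0 (-0.050) it was 0.021 without day 0 R1, and also without day 0 R1 and day 7 R2; leaving out 1 library gave -0.13 to 0.021. The cause was not tested.

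The count of members that passed at day 7 against day 0 was 3 in a fit of the compared groups alone. At day 30 against day 0 it was 2 in that fit (Lpl and Pltp) and 1 with DESeq2. With the day 30 libraries averaged to 1 sample it was 2 at day 30 against day 7 and 5 at day 30 against day 3; fewer samples enter that fit, and the lone sample is assumed to vary like the other groups. Leaving out 1 library at a time gave 8 to 10 members at day 3 against day 0, 4 to 7 at day 7 against day 0, 0 to 0 at day 30 against day 0, 7 to 9 at day 7 against day 3, 5 to 9 at day 30 against day 7, 8 to 10 at day 30 against day 3 and 9 to 10 over the 4 groups.

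Whether replicate numbers pair the libraries was not settled. Deviations of same-numbered libraries from their group means correlated at a median r of 0.0049 (18 pairs, 3 over 0.1). For pairs with different numbers the median was -0.0069 (36 pairs, 3 over 0.1). Of the 12 libraries, 7 correlated best with one of their own number, and the highest r was between day 3 R1 and day 7 R1 (0.21). With the number as a replicate block the counts of members were 10, 6, 0, 7, 9, 10 and 10 in the order above.

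Counts over all genes moved by more than 1.5 times only in comparisons with day 30 and at day 7 against day 0. Day 7 against day 0 gave 2782 genes, 1158 in a fit of the compared groups alone and 1740 with day 30 averaged. Day 30 against day 0 gave 796 genes, 2674 in a fit of the compared groups alone, 1328 with DESeq2, 14 with day 30 averaged, 2513 without day 0 R1 and day 7 R2, 1990 without day 7 R2, 268 and 402 without day 0 R2 and R3, and 276, 235 and 272 without each day 30 library. With day 30 averaged, 5103 became 815 at day 30 against day 7 and 5079 became 2013 at day 30 against day 3. Depth limits Nr1h3 most, with 14 to 142 reads per library.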
